A study of Mus musculus with 12 samples.

Results

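The genes described here are 10 components of the cytoskeleton and growth cone of young neurons, taken by symbol from RNA sequencing of the mouse embryonic pallium. They are Dcx, Map2, Mapt, Map1b, Stmn2, Stmn3, Gap43, Nefl, Nefm and Ina. All 10 of them were found among the 54735 gene symbols in each of the 12 libraries. The libraries came from the dorsal telencephalon (the pallium, which forms the cerebral cortex) of C57/Bl6 embryos at E13.5, with 4 embryos in each of 3 genotypes. Every embryo carried Emx1-Cre, a recombinase made in the progenitors of the dorsal telencephalon. Control embryos had one floxed Rnu11 allele and wild-type Trp53 (Rnu11wt/flx::Trp53wt/wt). Rnu11 cKO embryos had both Rnu11 alleles floxed (Rnu11flx/flx::Trp53wt/wt), and Rnu11::Trp53 dKO embryos had both alleles of both genes floxed (Rnu11flx/flx::Trp53flx/flx). The controls were therefore heterozygous for the deleted Rnu11 allele rather than wild type. Cells that do not descend from Emx1-expressing progenitors, such as microglia, blood vessels and immigrating interneurons, keep their alleles in all genotypes.

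Rnu11 encodes the U11 small nuclear RNA, the part of the minor spliceosome that recognises the 5′ splice site of minor introns, and p53 (Trp53) is a transcription factor that drives cell cycle arrest and cell death after damage. The comparison of cKO with dKO embryos asks which consequences of Rnu11 loss depend on p53. Newborn cortical neurons migrate along radial glia and extend an axon, and both steps need a rebuilt microtubule skeleton. Doublecortin (Dcx) and the microtubule-associated proteins Map2, tau (Mapt) and Map1b bind and stabilise microtubules, stathmins such as Stmn2 and Stmn3 bind free tubulin and destabilise them, Gap43 sits under the growth cone membrane and acts on actin, and Nefl, Nefm and Ina build the intermediate filaments of neurons. Most of these genes are switched on as a progenitor leaves the cell cycle, so in whole tissue their level follows both the number of neurons and the RNA per neuron. In such bulk samples fewer cells of a type and less RNA per cell cannot be told apart.

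Values are TPM, a measure of transcript abundance which scale each gene for its length and each library to a fixed sum, so they can be compared between genes. The unit was inferred from the values, and the sequencing depth is unknown. Rnu11 averaged 640.5 ± 86.4 TPM (SD, n = 4) in controls, 144 ± 20.4 in the cKO group and 164 ± 26.3 in the dKO group, and Trp53 averaged 3.82 ± 1.73, 4.24 ± 0.404 and 1.22 ± 0.252 TPM, in the directions the genotype labels give. The pallial label was met by Eomes, Pax6 and Fezf2, which were present in all groups, while Nkx2-1, which marks the ventral telencephalon, had a mean of at most 0.0217 TPM in any group. Of 12 interneuron and ventral markers read, 3 averaged 1 TPM or more, so ventral or immigrating cells were not absent. In control, cKO and dKO embryos these were Sst (2.80, 6.06 and 2.31 TPM), Dlx1 (1.24, 2.39 and 1.34) and Dlx6os1 (1.47, 1.52 and 2.38). Protein-coding genes took 14.6 to 16.3% of the TPM in controls, 16.1 to 20.0% in cKO and 14.4 to 15.5% in dKO libraries. For the 11764 genes averaging 1 TPM or more, the median difference on the log2(TPM + 1) scale was 0.25 between cKO and control, -0.01 between dKO and control and -0.26 between dKO and cKO. The changes of the members between genotypes are therefore given as deposited and after centring, in which each library's log2 values were moved by a constant so that its typical gene matched the mean library. Multiplying each library by 1 factor instead (median-ratio rescaling, chosen after seeing the data) served the low genes, whose values a shift on this scale overcorrects.

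In GRCm38, the build called mm10 in the submitters' processing notes, GENCODE M21 places the members on 9 chromosomes. Gap43 lies at chr16:42248442-42340651 on the minus strand, Stmn3 at chr2:181306459-181314500 (minus), Dcx at chrX:143855842-143933311 (minus) and Map1b at chr13:99421446-99516540 (minus). Nefl (chr14:68083863-68089095, plus) lies wholly inside the span of Nefm (chr14:68082590-68124846, minus) on the opposite strand, and Ina (chr19:47014698-47025327, plus) overlaps Nt5c2 on the opposite strand. The libraries were stranded, but the strand setting of the authors' counting is not given in the sources used here, so the split of reads between these pairs is uncertain.

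RefSeq promoter windows (GRCm38.p6) were found for 5 of the 10 members, namely Map2, Stmn3, Map1b, Ina and Dcx. Because most members were higher together in cKO embryos as deposited, the windows were searched on both strands for CAGATG (an E-box core that proneural factors such as Neurog2 and Neurod bind), GGGCGG (the GC box), TATAAA (the TATA box) and the p53 half-site. The 250 bases before the start are shown for Stmn3 (chr2:181314501-181314750, minus strand) and Map1b (chr13:99516603-99516852, minus strand), 5′ to 3′, since these are the members whose windows hold CAGATG. Capitals mark the E-box core, the GC box and the TATA box on either strand.
Stmn3: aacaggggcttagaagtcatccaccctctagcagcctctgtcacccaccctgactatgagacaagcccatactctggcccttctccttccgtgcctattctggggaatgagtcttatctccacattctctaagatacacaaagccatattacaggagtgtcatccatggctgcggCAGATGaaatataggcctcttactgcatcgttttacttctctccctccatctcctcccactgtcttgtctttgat
Map1b: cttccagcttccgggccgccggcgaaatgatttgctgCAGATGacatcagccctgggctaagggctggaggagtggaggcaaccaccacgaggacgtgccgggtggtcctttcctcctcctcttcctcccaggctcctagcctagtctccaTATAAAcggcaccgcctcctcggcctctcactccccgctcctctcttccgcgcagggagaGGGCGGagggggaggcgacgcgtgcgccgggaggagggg
CAGATG was present in the windows of 2 of the 5 members, GGGCGG in 3, TATAAA in 2 (Map1b and Dcx) and the p53 half-site in 2 (Stmn3 and Dcx). Over all 32851 windows of the same length the shares were 14.4%, 32.7%, 12.4% and 7.13%. These shares count windows, while the members are counted by gene with a match in any window. Dcx had 2 overlapping windows, each with TATAAA and the p53 half-site. The GC content was 41.6% and 44.8% in the windows of Dcx, 48.8% in Stmn3, 66.4% in Map1b, 70.8% in Ina and 81.2% in Map2. The median over all windows was 52.4%. A match of letters is a description of sequence only.

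In the cKO pallium the growth cone gene Gap43 differed most from control among the 10 genes: its TPM was 2.06 times the control mean, and it was called higher as deposited and under every scaling tried. Of the 9 members that passed the filter on low values, 8 were called higher in cKO than in control embryos as deposited (limma on log2(TPM + 1), Benjamini-Hochberg adjusted p under 0.05 over all tested genes), all but Nefm. Over all tested genes 34.3% were called higher, so a call as deposited carries much of the common shift. After centring, 1 of 9 members was called higher (Gap43), beside 3.72% of all genes, and after median-ratio rescaling again 1 of 9 (Gap43), beside 4.96%. With protein-coding genes scaled to an equal sum, 2 of 9 were called (Gap43 and Stmn3), beside 11.3%. The median change of the 9 members was 0.60 as deposited and 0.35 after centring, and all 9 centred values were above 0, the lowest being Nefm at 0.00. In the dKO pallium no member was called different from control, and the levels of most members lay below those of cKO.

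**Figure D1:**
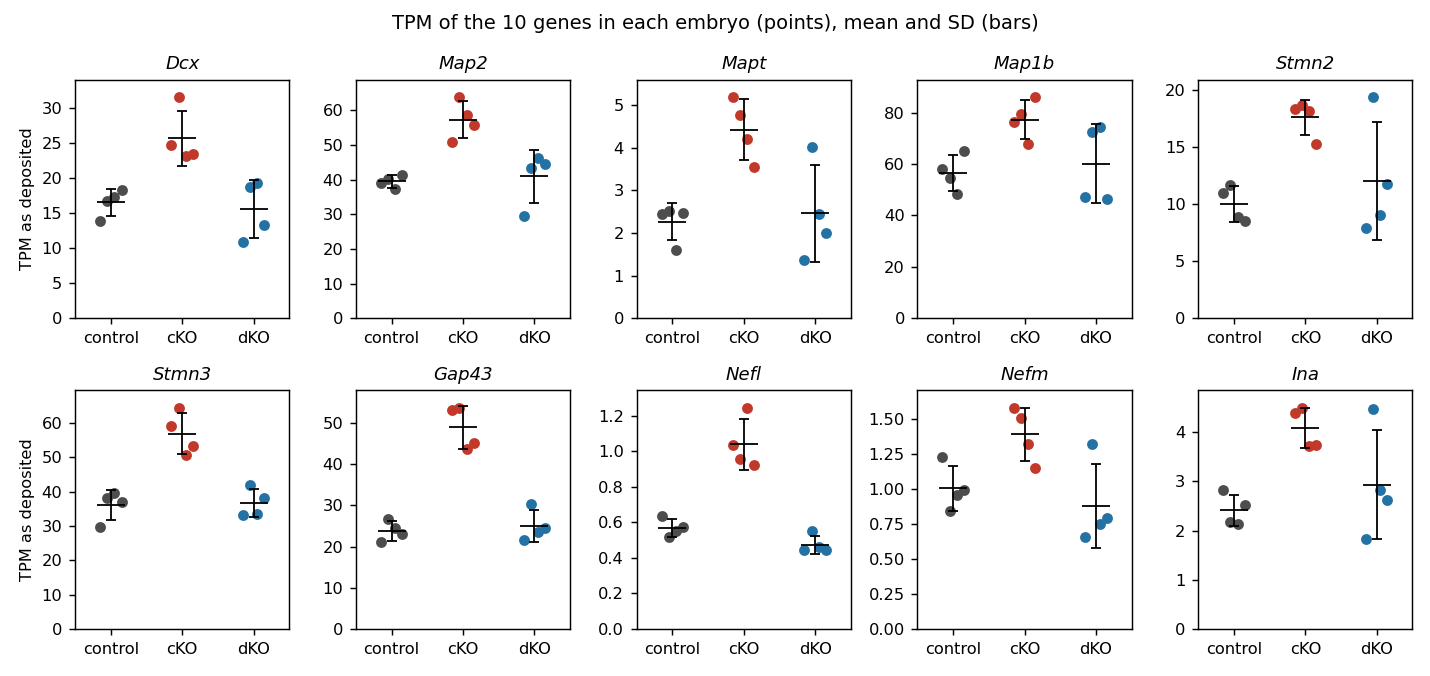
TPM as deposited (vertical axis, from 0) of each of the 10 genes in control, cKO and dKO embryos. Points are embryos, the long bar is the mean and the short bars 1 SD (n = 4). For 9 genes every cKO point lies above every control point, the exception being Nefm, and in Stmn2, Mapt, Nefm and Ina 1 dKO embryo lies in or above the range of the cKO embryos.

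Dcx, mutated in human lissencephaly and needed for migrating neurons to pull the nucleus forward, measured 13.9, 16.6, 17.2 and 18.3 TPM in the control embryos, 24.6, 31.4, 23.1 and 23.4 in cKO embryos, and 10.8, 18.7, 19.2 and 13.3 in dKO. Every cKO embryo lay above every control and every dKO embryo, while the control and dKO groups overlapped. The cKO minus control difference was 0.60 (SE 0.17, adjusted p = 0.0189, limma) as deposited and 0.35 (adjusted p = 0.2499) after centring, and without cKO embryo 2, the highest, it was 0.50 (adjusted p = 0.0611) as deposited. The dKO minus cKO difference was -0.72 (adjusted p = 0.00738) as deposited and -0.45 (adjusted p = 0.136) after centring.

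Map2, which marks dendrites and the neuronal cell body, stood at 39.0, 40.3, 37.2 and 41.4 TPM in controls, 51.0, 63.7, 58.7 and 55.6 in cKO embryos, and 29.6, 43.3, 46.2 and 44.5 in dKO embryos. The cKO embryos were again apart from both other groups, and dKO embryo 1 was the lowest of all 12. Map2 was 0.52 higher in cKO than in control (SE 0.13, adjusted p = 0.0112) and 0.49 lower in dKO than in cKO (log2 change -0.49, adjusted p = 0.0124) as deposited. The centred differences were 0.27 (adjusted p = 0.241) and -0.22 (adjusted p = 0.322).

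Mapt, which encodes the axonal protein tau, was a low gene, with 2.46, 2.51, 1.61 and 2.47 TPM in controls, 5.19, 4.78, 4.20 and 3.56 in cKO embryos, and 1.36, 4.03, 2.46 and 1.99 in dKO embryos. The cKO embryos exceeded all controls, but dKO embryo 2 reached into the cKO range. The difference between cKO and control was 0.74 (SE 0.20, adjusted p = 0.0148) as deposited and 0.49 (adjusted p = 0.188) after centring, and that between dKO and cKO was -0.70 (adjusted p = 0.0160) and -0.43 (adjusted p = 0.231).

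Map1b, the most abundant of the 10 and an early microtubule-associated protein of growing axons, measured 58.2, 54.6, 48.4 and 64.9 TPM in controls, 76.2, 79.4, 67.6 and 85.9 in cKO embryos, and 47.2, 72.5, 74.2 and 46.6 in dKO embryos. The dKO embryos split into a pair below every control and a pair inside the cKO range. The cKO minus control difference of 0.45 (SE 0.16) lay at the edge of the threshold as deposited (adjusted p = 0.0497). It was called in 5 of the 12 fits that left out 1 embryo, and lost without any one control embryo or cKO embryo 1, 2 or 4 (0.38 to 0.52, adjusted p = 0.0534 to 0.127). Centred it was 0.20 (adjusted p = 0.486). The dKO minus cKO difference was -0.39 (adjusted p = 0.0757) as deposited, -0.49 (adjusted p = 0.0400) without dKO embryo 2 and -0.50 (adjusted p = 0.0355) without dKO embryo 3. After centring it was -0.12 (adjusted p = 0.666).

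The stathmins followed the same order. Stmn2, enriched in growth cones, stood at 10.9, 11.7, 8.90 and 8.50 TPM in controls, 18.3, 18.7, 18.1 and 15.3 in cKO embryos, and 7.90, 19.4, 9.05 and 11.7 in dKO embryos. dKO embryo 2 had the highest Stmn2 value of all 12, and the other dKO embryos lay in or near the control range. Stmn2 was 0.76 higher in cKO than in control (SE 0.21, adjusted p = 0.0170) as deposited and 0.51 higher (adjusted p = 0.194) after centring. Its dKO minus cKO difference of -0.59 (adjusted p = 0.0422) was called as deposited and in 3 of the 12 fits that left out 1 embryo. The call was lost without control embryo 3 or 4, any one cKO embryo, or dKO embryo 1, 3 or 4 (adjusted p = 0.0501 to 0.113). After centring it was -0.32 (adjusted p = 0.407).

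Stmn3 was the member with the second smallest adjusted p. It measured 29.6, 38.1, 39.5 and 37.0 TPM in controls, 59.1, 64.4, 50.8 and 53.4 in cKO embryos, and 33.3, 41.9, 33.4 and 38.3 in dKO embryos. All cKO embryos lay above all others, and the dKO embryos lay in the control range or, for embryo 2, just above it. The cKO minus control difference was 0.65 (SE 0.12, adjusted p = 0.00254) and the dKO minus cKO difference -0.62 (adjusted p = 0.00260) as deposited. After centring these were 0.40 (adjusted p = 0.0876) and -0.35 (adjusted p = 0.123), and with protein-coding genes scaled to an equal sum the first was 0.49 (adjusted p = 0.0339).

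Gap43 measured 21.1, 26.6, 24.6 and 23.0 TPM in controls, 53.2, 53.6, 43.8 and 45.2 in cKO embryos, and 21.5, 30.4, 23.4 and 24.4 in dKO embryos. No cKO value came near those of the other groups, and the dKO values overlapped the controls. After median-ratio rescaling the cKO embryos still lay apart from both other groups, at 34.8 to 50.7 TPM beside 21.6 to 29.8 in controls and 22.7 to 32.1 in dKO embryos. The cKO minus control difference was 1.01 (SE 0.12, adjusted p = 0.000190) as deposited and 0.76 (adjusted p = 0.00378) after centring, and the dKO minus cKO difference -0.95 (adjusted p = 0.000273) and -0.68 (adjusted p = 0.0113). Leaving out each embryo in turn gave centred differences of 0.68 to 0.84 and of -0.77 to -0.61, called in 12 of 12 fits each. Set against the other members inside each library, a comparison that no scaling can move, the log2 ratio of Gap43 to its 9 partners was 0.06 to 0.59 higher in cKO than in control embryos. Gap43 was taken here as the member with the largest change, so the direction of these ratios follows from that choice. The groups did not overlap for 5 of these 9 ratios, and no share was computed for pairs of other genes. For example, the log2 ratio of Stmn3 to Gap43 was 0.60 ± 0.11 (SD, n = 4) in control, 0.22 ± 0.05 in cKO and 0.56 ± 0.09 in dKO embryos. An exact two-sided permutation test of 4 against 4 embryos cannot go below p = 0.0286, and over the 135 ratio tests computed (45 pairs in 3 comparisons) the smallest adjusted p was 0.214.

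Among the intermediate filament genes, Nefl, the light neurofilament subunit, had a mean of 0.695 TPM over all libraries and did not pass the filter. It measured 0.637, 0.517, 0.554 and 0.572 TPM in controls, 1.04, 0.957, 1.24 and 0.923 in cKO embryos, and 0.445, 0.551, 0.460 and 0.444 in dKO embryos. Even at this level every cKO embryo lay above every other embryo, also after median-ratio rescaling. In a fit without the filter (39624 genes), Nefl was 0.38 higher in cKO than in control (SE 0.07, adjusted p = 0.00646, with 11% of genes called higher) and lower in dKO than in cKO (-0.47, adjusted p = 0.00218, with 14.5% called lower). After median-ratio rescaling these were 0.27 (adjusted p = 0.124, with 1.9% called higher) and -0.35 (adjusted p = 0.0445, with 2.17% called lower).

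Nefm, the medium subunit, passed the filter with a mean of 1.09 TPM, which its cKO level carried: the group means were 1.00, 1.39 and 0.879 TPM. Its values were 1.23, 0.837, 0.953 and 0.993 TPM in controls, 1.57, 1.5, 1.32 and 1.15 in cKO embryos, and 0.657, 1.32, 0.749 and 0.789 in dKO embryos. It was the 1 member whose cKO and control embryos overlapped, with a difference of 0.25 (SE 0.12, adjusted p = 0.107) as deposited, 0.00 after centring and 0.12 after median-ratio rescaling. The dKO minus cKO difference was -0.35 (adjusted p = 0.0326) as deposited and -0.09 (adjusted p = 0.711) after centring. As deposited it was called in 7 of 12 fits that left out 1 embryo, and lost without cKO embryo 1 or 2 or dKO embryo 1, 3 or 4 (adjusted p = 0.0675 to 0.0825).

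Ina, the internexin subunit that precedes the neurofilament triplet in development, stood at 2.82, 2.18, 2.13 and 2.51 TPM in controls, 4.39, 4.49, 3.72 and 3.75 in cKO embryos, and 1.83, 4.48, 2.82 and 2.62 in dKO embryos. All cKO embryos lay above all controls, and dKO embryo 2 was level with the highest of them. The cKO minus control difference was 0.58 (SE 0.16, adjusted p = 0.0177) as deposited, 0.54 (adjusted p = 0.0517) without cKO embryo 2, and 0.33 (adjusted p = 0.246) after centring. The dKO minus cKO difference was -0.41 (adjusted p = 0.0599) as deposited and -0.58 (adjusted p = 0.00472) without dKO embryo 2. After centring it was -0.14 (adjusted p = 0.630).

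**Figure D2:**
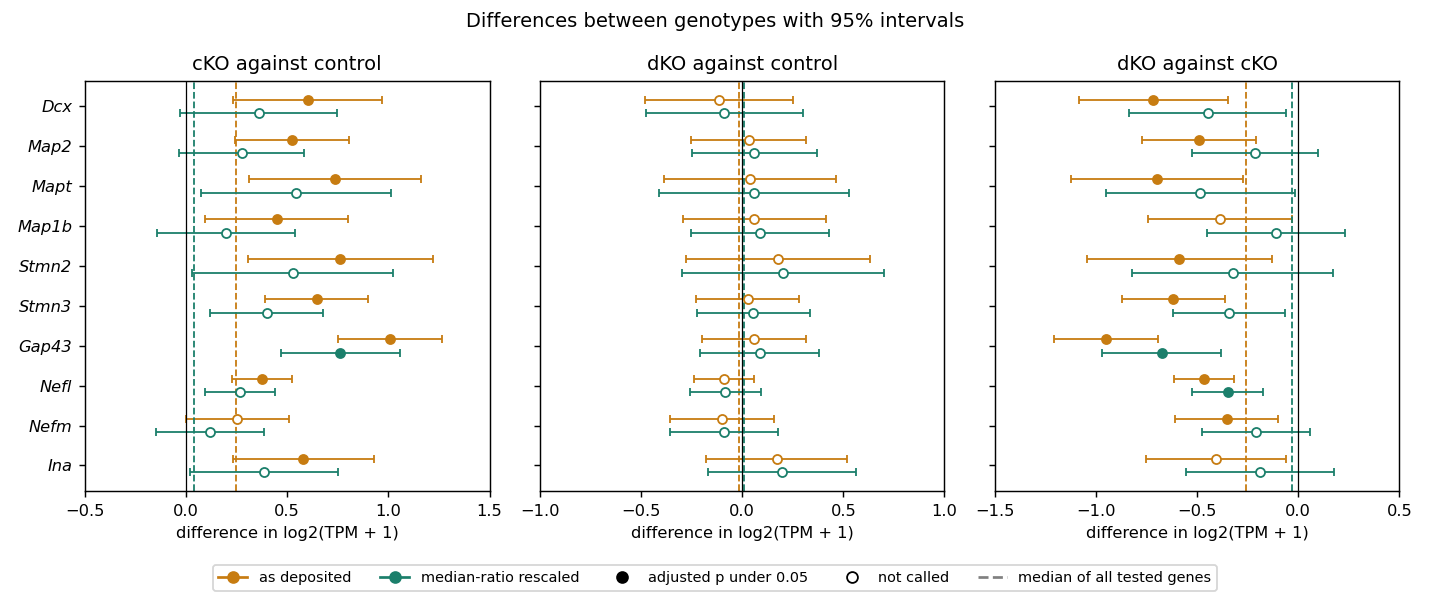
Difference in log2(TPM + 1) of each member for the 3 comparisons, as deposited and after median-ratio rescaling, with 95% intervals from limma. Filled points have an adjusted p under 0.05, dashed lines mark the median of all tested genes on each scale, and Nefl comes from the fits with no filter on low values. Gap43 is the one member filled on both scales in cKO against control, and Gap43 and Nefl in dKO against cKO.

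By their levels the members kept nearly one order in all genotypes: Map1b, Map2, Stmn3, Gap43, Dcx, Stmn2, then Ina and Mapt, then Nefm and Nefl. In control embryos Map1b, at 56.5 ± 6.93 TPM (SD, n = 4), lay above 94.4% of tested genes, and Nefl, at 0.570 ± 0.050, above 0.808%. Neighbours in this order whose embryos overlapped were Map2 with Stmn3 and Ina with Mapt in control. In cKO the embryos of Map2, Stmn3 and Gap43 overlapped in turn, as did those of Mapt with Ina and of Nefm with Nefl. In dKO they were Map2 with Stmn3, Dcx with Stmn2 and Ina with Mapt.

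Counted without a fit, 9 of 10 members had every cKO embryo above every control embryo as deposited, beside 32.7% of all tested genes. After median-ratio rescaling 2 of 10 did so (Gap43 and Nefl), beside 12.2%. Nefl did not pass the filter and is not among the tested genes behind these shares, so Gap43 was the only tested member. The rescaled count turns on cKO embryo 4, whose factor was the smallest of all libraries (0.770). Rescaled values of cKO embryos 1, 2 and 3 lay above every control for all members but Map1b, as seen afterwards. The ratio of the cKO to the control mean ranged from 1.37 (Map1b) to 2.06 (Gap43), with a median of 1.64, and after rescaling from 1.14 to 1.73 with a median of 1.38. Without cKO embryo 2 the number of members called higher in the fit as deposited was 5 of 9 in place of 8, with Dcx, Map1b and Ina no longer called. The 10 members together summed to 180 to 200 TPM in controls, 273 to 323 in cKO and 155 to 237 in dKO embryos. As a share of protein-coding TPM this was 0.121 ± 0.0116% (SD, n = 4), 0.170 ± 0.0187% and 0.133 ± 0.0256%.

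The dKO embryos, in which Trp53 was floxed as well, lay below cKO for most members. As deposited 7 of 9 tested members were called lower in dKO than in cKO, beside 38.8% of all genes, and the ones not called were Map1b and Ina. The 7 include Nefm, which passed the filter on low values through its cKO level. After centring 1 of 9 was called lower (Gap43), beside 3.83%, and so it was after median-ratio rescaling, beside 5.25%, and after protein-coding rescaling, beside 8.28%. The median change of the members was -0.59 as deposited and -0.32 after centring, and all 9 values were below 0 on both scales. Every dKO embryo lay below every cKO embryo for 5 of 10 members as deposited (Dcx, Map2, Stmn3, Gap43 and Nefl), beside 32.8% of all tested genes, and for 2 of 10 after rescaling (Gap43 and Nefl), beside 9.66%. Nefl is not among the tested genes behind these shares. This comparison and that of cKO with control share the cKO embryos, so the 2 sets of changes are not independent.

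Between dKO and control 0 of 9 members were called in either direction by limma, beside 1.79% of all genes called higher and 3.4% called lower, and 0 of 9 reached an unadjusted p under 0.05. After centring it was again 0 of 9, beside 3.74% called higher and 4.69% called lower. The group ranges overlapped for all 10 members, beside 5.14% of tested genes lying wholly higher and 8.44% wholly lower. The differences as deposited, with the half-width of their 95% interval, were 0.06 ± 0.26 for Gap43, 0.03 ± 0.25 for Stmn3, 0.03 ± 0.28 for Map2 and 0.06 ± 0.35 for Map1b. They were -0.11 ± 0.37 for Dcx, 0.04 ± 0.42 for Mapt, 0.18 ± 0.46 for Stmn2, -0.10 ± 0.26 for Nefm and 0.17 ± 0.35 for Ina, with adjusted p from 0.617 to 0.941. Nefl, in the fit without the filter, differed by -0.09 ± 0.15 (adjusted p = 0.666). After centring the differences of the 9 tested members lay between -0.09 (Dcx) and 0.20 (Stmn2). As deposited the intervals of all 9 ended below the difference between cKO and control. After centring those of Gap43, Stmn3 and Dcx did so, while those of Map2, Mapt, Map1b, Stmn2 and Ina reached past it and so do not exclude a difference of that size. Nefm, with a centred cKO difference of 0.00, leaves no difference to compare with. The cKO difference is itself an estimate against the same control embryos, so these comparisons are descriptions.

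The SD among dKO embryos exceeded that of both other groups for 7 of 10 members, all but Stmn3, Gap43 and Nefl. dKO embryo 1 was the lowest of its group for 8 of 10 members as deposited and for 10 of 10 after median-ratio rescaling, and dKO embryo 2 was the highest for 7 of 10 on both scales. In cKO, embryo 2 was the highest for 6 of 10 as deposited, and embryo 4 the lowest for 9 of 10 after rescaling. cKO embryo 4 also had the highest protein-coding share of all libraries. Over the 12 libraries the centred values of the 45 pairs of members correlated with r from 0.13 to 0.93 (Stmn3 with Gap43), with a median of 0.65. Around the group means r ran from -0.06 to 0.94 (Mapt with Ina), with a median of 0.51, and 44 of 45 pairs were above 0. These correlations are descriptions, since the points share their library and its centring.

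**Figure D3:**
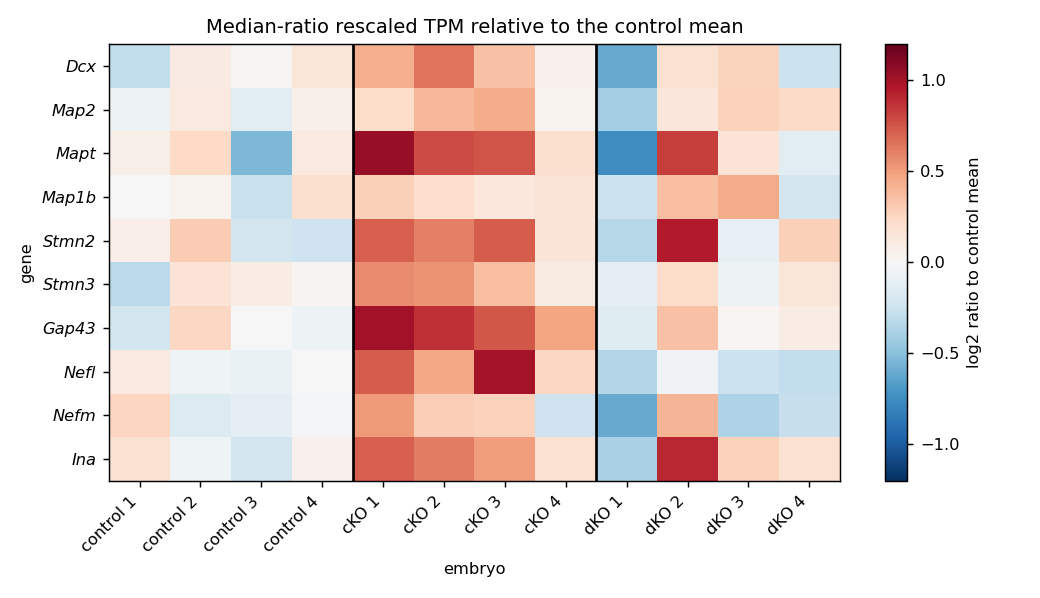
Log2 ratio of each embryo's median-ratio rescaled TPM to the control mean (colour) for the 10 genes (rows) in the 12 embryos (columns, grouped by genotype). Red is above and blue below the control mean. The columns of cKO 1, 2 and 3 are red for all 10 genes and that of cKO 4 is pale for most, and within dKO the column of embryo 1 is blue throughout while that of embryo 2 is red for 9 genes.

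The 5 protein-coding genes whose centred pattern over the 12 libraries was most like the mean of the members, out of 5013 candidates averaging 5 TPM or more, were Dclk1 (r = 0.96), Sbf2 (0.93), Ank2 (0.91), Zeb2 (0.90) and Fnbp1l (0.90). Dclk1, a doublecortin-like kinase that binds microtubules, measured 5.03 ± 0.443 TPM (SD, n = 4) in control, 8.05 ± 0.954 in cKO and 4.95 ± 1.60 in dKO embryos. Zeb2, a transcription factor of migrating cortical neurons, stood at 25.1 ± 0.896, 38.2 ± 3.47 and 24.9 ± 4.48 TPM. These genes were picked for following the mean of the members, so their levels are a description.

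The other lists of genes of the same cellular machinery are read beside the 34.3% of all genes called higher in cKO than in control as deposited and the 3.72% after centring. Of other microtubule-associated genes 29 of 33 were tested, and 17 were called higher in cKO than in control as deposited and 0 after centring (median change 0.36 and 0.12). For the microtubule motors the counts were 10 and 0 of 19 tested (median 0.37 and 0.12), and for growth cone and actin genes 14 and 1 of 22 (0.38 and 0.13). The 1 was Coro1a (7.48 ± 0.373 TPM in controls, 12.7 ± 2.09 in cKO), an actin-binding protein that is also abundant in immune cells. Among adhesion and guidance genes 7 and 0 of 23 were called higher, among migration genes 10 and 1 of 23, among other intermediate filament genes 1 and 0 of 5, and among other neuronal genes 13 and 1 of 24. Those called higher after centring in the last lists were the chemokine receptor Cxcr4 (10.5 ± 1.17 to 16.04 ± 1.51 TPM) and Scg3, a granule protein of neurosecretory cells (7.62 ± 0.956 to 12.6 ± 1.67 TPM).

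Between dKO and control, where no member was called, some genes of neuronal migration and axon guidance were called lower on both scales. Epha5, an ephrin receptor that guides axons, fell from 33.4 ± 3.37 TPM in control to 16.4 ± 3.35 in dKO (log2 change -0.995, SE 0.14, adjusted p = 0.00229; centred -0.98), and Epha3 from 19.3 ± 3.10 to 12.05 ± 0.296. Neurod6, a transcription factor of cortical projection neurons, fell from 94.4 ± 16.4 to 61.0 ± 12.4 TPM (log2 change -0.63, adjusted p = 0.0374; centred -0.61). Nrg1, Gria2, Elavl2 and the dynein light intermediate chain Dync1li1 changed by -0.51, -0.62, -0.50 and -0.46 as deposited and by -0.49, -0.60, -0.48 and -0.44 after centring. By list, 3 of 23 adhesion and guidance genes, 2 of 23 migration genes, 2 of 24 other neuronal genes and 1 of 19 motors were called lower as deposited, and 0 in the remaining 3 lists, beside 3.4% of all genes. After centring 3 guidance, 3 migration, 2 other neuronal, 1 motor and 1 growth cone gene (Gpm6b) were called lower, beside 4.69%, and 1 microtubule-associated gene (Camsap1) was called higher, beside 3.74%. Gpm6b and Camsap1 are named after their values were seen. Against cKO, the dKO embryos had 16 of 29 microtubule-associated, 12 of 19 motor, 16 of 22 growth cone, 16 of 23 guidance, 14 of 23 migration, 2 of 5 filament and 18 of 24 other neuronal genes called lower as deposited, beside 38.8% of all genes. After centring these counts were 1, 1, 1, 2, 3, 0 and 5, beside 3.83%. Neurod2 (log2 change -1.06, centred -0.79, adjusted p = 0.0108) and Gria2 (-0.98, centred -0.72, adjusted p = 0.0153) were among those called on both scales, as were Clasp2, Coro1a, Bhlhe22 and Nsg2.

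Markers of several cell types differed between the genotypes, some in the pattern of the members and some not. Counts called higher in cKO than in control are read beside 34.3% of all genes as deposited and 3.72% after centring. Counts called lower are read beside 1.09% and 2.96%. Summed microglial markers lay at 14.0 to 17.3 TPM in controls, 56.3 to 81.7 in cKO and 16.5 to 22.9 in dKO embryos, and 8 of 9 tested were called higher in cKO on both scales. The 8 include Cx3cr1 (0.688, 2.98 and 0.823 TPM in control, cKO and dKO) and Csf1r (0.538, 1.75 and 0.842). Both passed the filter on low values only through their cKO level, so their calls add no support. Cajal-Retzius markers, of early-born neurons that themselves express several members, summed to 20.1 to 26.5, 44.5 to 51.2 and 22.9 to 34.4 TPM, with 4 of 5 tested called higher in cKO as deposited and 3 after centring. Reln, their defining gene, measured 14.6 ± 3.37 TPM in controls, 35.1 ± 2.99 in cKO and 17.004 ± 4.10 in dKO embryos, and makes up most of the sum. Calb2, of the same list, went another way, at 1.96 ± 0.298, 3.33 ± 0.226 and 4.24 ± 1.33 TPM. It was called higher in dKO than in control embryos (limma adjusted p = 0.0106 as deposited and 0.00794 after centring). Interneuron markers summed to 5.19 to 8.39, 10.3 to 14.4 and 5.40 to 11.04 TPM, with 2 of 3 tested called higher in cKO and 1 after centring (Sst). Gsx2 was listed at 0 in 7 of the 12 libraries, and no marker named here was at 0 in all of them. Projection neuron markers summed to 219 to 256, 268 to 324 and 143 to 214 TPM, with 1 of 9 called higher in cKO as deposited and 0 after centring. Every dKO sum of this list lay below every control sum, unlike the members. Neurod6 (94.4 TPM in controls, 61.0 in dKO), also in the migration list above, and Nfib (81.1 and 59.6) make up most of that sum. In dKO against control 2 of 9 tested were called lower as deposited (Neurod6 and Sox5), beside 3.4% of all genes. After centring 2 were called lower (Neurod6 and Neurod2), beside 4.69%. Tbr1 was higher in dKO (2.86 TPM in controls, 3.30 in dKO) and was not called. Endothelial and pericyte markers summed to 10.98 to 14.6 TPM in controls, 22.3 to 29.6 in cKO and 14.7 to 22.2 in dKO embryos, with 7 of 7 tested called higher in cKO as deposited and 4 after centring. The 7 include Kcnj8 (0.777, 1.51 and 1.17 TPM in control, cKO and dKO), which passed the filter through its cKO level. Meningeal markers summed to 23.9 to 41.5, 44.0 to 52.3 and 37.9 to 55.3 TPM, with 4 of 5 called higher and 1 after centring. In dKO against control 1 of 5 meningeal markers was called higher as deposited and 3 after centring. For endothelial and pericyte markers these counts were 0 and 2 of 7. The shares of all genes called higher in that comparison were 1.79% and 3.74%. Markers of choroid plexus and cortical hem, the hem being a source of Cajal-Retzius cells, summed to 45.8 to 105, 87.5 to 260 and 72.6 to 300.2 TPM, with 3 of 7 called higher and 1 after centring (Rspo2). Of 11 radial glia markers cKO embryos had 2 higher and 1 lower by the test on deposited values, and 0 higher and 2 lower (Sox2 and Hes5) after centring. Of 8 intermediate progenitor markers they had 1 higher and 1 lower on deposited values, and 0 higher and 3 lower after centring (Eomes, Neurog1 and Neurog2). Of the 3, Eomes and Neurog1 were not called as deposited (limma adjusted p = 0.295 and 0.0745). Neurog1 is a low gene (1.95 TPM in controls, 1.17 in cKO), of the kind that centring overcorrects. dKO embryo 2, the highest dKO embryo for most members, also had the highest Cajal-Retzius, interneuron and projection neuron sums of its group, and dKO embryo 1 the lowest. The part of these cells in the values of the members was not tested.

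**Figure D4:**
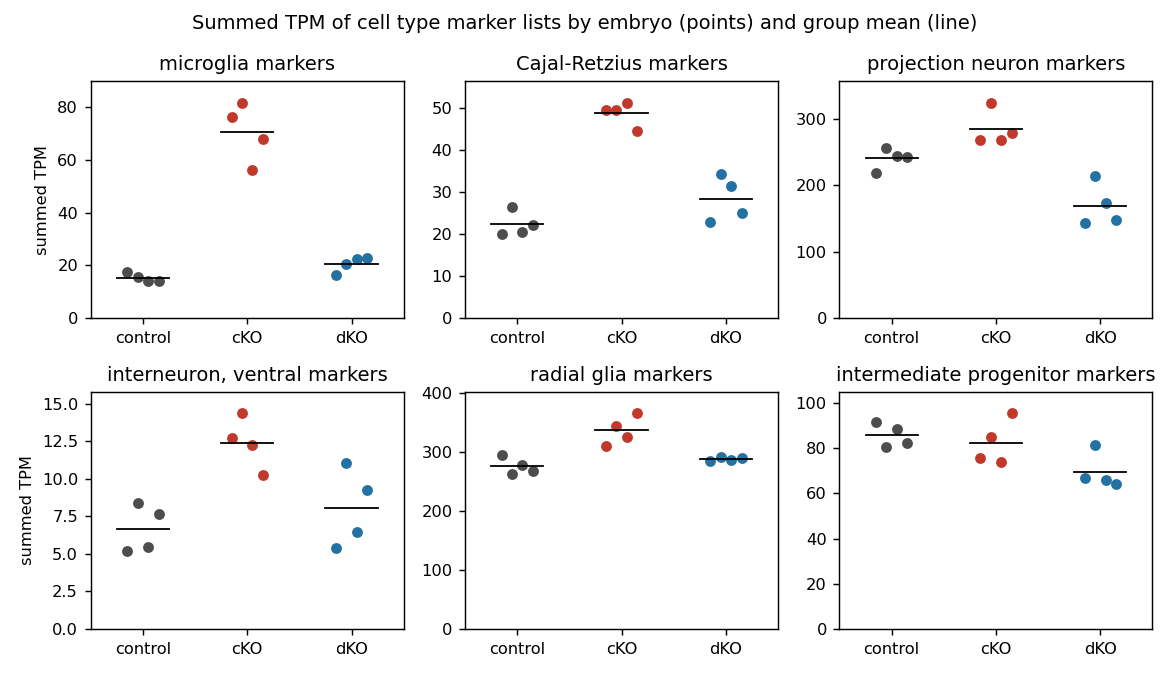
Summed TPM (vertical axis, from 0) of 6 lists of cell type markers in each embryo (points), with the group mean as a line. Microglial, Cajal-Retzius and interneuron sums separate cKO from control embryos, as do the projection neuron and radial glia sums by a smaller margin, and intermediate progenitor sums overlap. The radial glia sum is mostly Fabp7 (109 TPM in controls, 149 in cKO) and Vim (85.8 and 103). After centring 0 of 11 radial glia markers were called higher in cKO and 2 lower, beside 3.72% and 2.96% of all genes.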

How the data were processed

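RNA from 12 dissected pallia was sequenced from stranded total RNA libraries, per the labels. The deposited values are TPM by gene symbol in a table for each embryo. The unit was inferred, since each table reaches the same sum. HISAT2 and mm10 are named in the submitters' processing notes, and the counting tool is not given in the sources used here. Total RNA libraries hold abundant short RNAs, whose changes move the TPM of every other gene.

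Log2(TPM + 1) values of the 11764 genes averaging 1 TPM or more were fitted with limma 3.58.1 (lmFit, eBayes with trend) in R 4.3.3, the 3 groups in one fit, with Benjamini-Hochberg adjustment over all tested genes. Fold changes on this scale understate those of low genes. Nothing says that embryos came from separate litters, so p-values measure the spread between these embryos. Nothing says that replicate numbers pair the embryos, so the main fit did not use them. Gene types and positions came from GENCODE M21 and promoters from RefSeq (GRCm38.p6). The fit was tested on simulated data, where a constant added to the log2 values of all genes in 1 group gave many false calls. Centring removes such a constant by construction, so the equal number of false calls after centring and without the shift was fixed in advance. The simulation does not test centring against a shift of another form, such as a factor on the TPM of each library.

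The members and lists were chosen with earlier results of these data known. All members are named. From each other list the 2 largest changes called both as deposited and after centring are named per comparison, together with the 5 genes most like the members in pattern. Alternatives were centring, protein-coding, median-ratio and quantile scaling, a pseudocount of 0.1, other filters, fits of 2 groups, the replicate block and leaving out each embryo.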

Additional observations from a re-analysis of the deposited data

Results flagged for a closer look

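In 3 of the 30 sets of 4 embryos tested (10 members in 3 genotypes), 1 embryo lay apart from the rest by more than the share of the range that Dixon's test allows at 95%. Chance flags about 1 in 20 such sets, so 1.5 were to be looked for among 30. Mapt in control embryos was low in embryo 3, at 1.61 TPM beside 2.46 to 2.51 TPM in the others, a gap of 0.937 of the range. Stmn2 in cKO embryos was low in embryo 4, at 15.3 TPM beside 18.1 to 18.7 TPM, a gap of 0.841. Nefl in dKO embryos was high in embryo 2, at 0.551 TPM beside 0.444 to 0.460 TPM, a gap of 0.85.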

How the results depend on the processing

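In cKO against control, where 8 of 9 members were called as deposited, 1 was called after median-shift centring, 2 after protein-coding rescaling, 1 after median-ratio rescaling with or without the filter, 1 after quantile normalization and 5 of the 6 that remain with a mean of at least 5 TPM. In dKO against cKO, where 7 were called, the counts were 1 after centring, 1 after protein-coding rescaling, 1 after median-ratio rescaling (2 with no filter, by the addition of Nefl) and 1 after quantile normalization. The pseudocount of 0.1, no filter, fits of 2 groups and the replicate block without centring kept both counts within 1.5 times. In dKO against control 0 members were called under every alternative run. Leaving out 1 embryo, as deposited or centred, gave 1 to 8 members in cKO against control and 1 to 9 in dKO against cKO. In cKO against control it was 5 without cKO embryo 2 as deposited, and 1 in every centred fit without 1 embryo. Gap43 was called in both of these comparisons under every alternative run. Of all genes as deposited, 34.3% were called higher in cKO than in control and 38.8% lower in dKO than in cKO. No such share was computed for quantile normalization, the pseudocount of 0.1, the 5 TPM filter or the fits of 2 groups. Nor was a share computed for the replicate block or the fits with an embryo left out. Counts under these settings describe the processing only. The replicate block gave 7, 0 and 6 members called in cKO against control, dKO against control and dKO against cKO, and with centring 1, 0 and 1. Same-numbered embryos had correlations of -0.10 to 0.07, which show no sign of a pairing but cannot exclude it.

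The direction of Nefm in cKO against control turned under quantile normalization (-0.024). When embryos were left out it stayed above 0 as deposited, at 0.21 to 0.31. The lowest value, -0.063, came from a fit that was also centred, and centring alone had already brought Nefm to 0.00. In dKO against control the ranges over left-out embryos crossed 0 for Dcx (-0.22 to 0.044), Map2 (-0.032 to 0.19), Mapt (-0.16 to 0.22), Map1b (-0.051 to 0.18), Stmn2 (-0.065 to 0.34), Stmn3 (-0.063 to 0.10), Gap43 (-0.037 to 0.16) and Ina (-0.0015 to 0.33). TPM keeps no depth, so counting error could not be given, and it weighs most on Nefl, Nefm, Mapt and Ina. Why the counts change with the scaling was not tested.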

Other observations

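Ratios between members within a library, which no scaling of libraries can move, separated the groups of embryos for 9 of 45 pairs in cKO against control, 1 in dKO against control and 8 in dKO against cKO. No share was computed for pairs of other genes, so these counts have no background. The pairs also share members. In cKO against control Gap43, with the largest change, was in 5 of the 9 and Nefm, with the smallest, in 4. Gap43 was in 5 of the 8 in dKO against cKO. The log2 ratio of Nefm to Ina was -1.27 ± 0.11 (SD, n = 4) in control, -1.56 ± 0.10 in cKO and -1.72 ± 0.18 in dKO embryos. The cKO and dKO groups are each set here against the same 4 control embryos. The 2 neurofilament subunits also shifted against each other, with a log2 ratio of Nefl to Nefm of -0.80 ± 0.10 in control and -0.41 ± 0.26 in cKO embryos. Mapt and Ina, the pair that varied most closely among embryos of a genotype, nevertheless differed in ratio between the mutants, at 0.11 ± 0.14 (log2 of Mapt to Ina) in cKO and -0.29 ± 0.14 in dKO embryos. Each of these pairs was picked after its values were seen, and no ratio passed adjustment over the 135 exact permutation tests (smallest adjusted p = 0.214). Nefl and Nefm overlap in the annotation, and so do Ina and Nt5c2, so these ratios carry the uncertainty of the counting.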
